A study of Mus musculus with 2 samples.

Results

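Mir144, Mir451a and Mir486 are 3 microRNA genes known from red blood cells. They were taken by gene identifier from the 2202 microRNA genes that were counted in heart tissue, and all 3 were found in both tables. The tissue was from adult females, 8 to 10 months old, with the strain label 5xFAD/CAST. In 5xFAD mice a neuronal promoter drives human transgenes that cause amyloid deposits in the brain, as a model of Alzheimer disease. CAST stands for mice inbred from a wild-derived subspecies. The labels do not say whether the animals sampled carried the transgenes. The labels name no treatment, and the samples analysed here share strain label, sex, age and tissue, so the data form 1 group of 2 libraries, called replicate 1 and replicate 2. The labels number them as biological replicates with separate biosamples but the same donor identifier. They do not say whether these were separate animals, so the spread between the libraries may be technical. The comparisons ask how abundant the 3 microRNAs were in heart tissue and how far the libraries differed. Replicate 1 held 4186560 reads on microRNA genes and replicate 2 held 2877511. The heart microRNAs Mir499 and Mir208a, which lie in myosin heavy chain genes, were present at 4202 and 1356 counts per 1000000 assigned reads (CPM) on average.

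Mir144 and Mir451a are made from 1 primary transcript that the erythroid transcription factor GATA1 switches on, and both accumulate as red cells mature. Most microRNA precursors are cut by the nuclease Dicer. The stem left of the Mir451a hairpin after its first cut is too short for Dicer, and Argonaute2 cuts it instead. Mir486 lies in Ank1, which encodes the ankyrin that ties the membrane of red cells to their skeleton and has a short form in striated muscle. Its microRNA is known from both blood and muscle.

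By the annotation (release M21, build mm10), Mir144 lay on the plus strand at chr11:78073005-78073070 and Mir451a on the same strand at chr11:78073170-78073241. Both were intergenic, with 99 bases between them, and the nearest protein-coding gene, Eral1, ended 134 bases beyond Mir451a on the opposite strand. Mir486 lay on the plus strand at chr8:23142555-23142682 in an intron of Ank1. In all 12 protein-coding Ank1 transcripts that span it, 1 exon followed, so this was the last intron. The noncoding gene Gm15816 covered the same place on the opposite strand.

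RefSeq (build GRCm38.p6) gave sequences for 2 of the 3 genes, Mir144 and Mir451a. The hairpins of Mir144, Mir451a and Mir451b, the microRNA gene on the opposite strand of Mir451a, are shown 5′ to 3′ to compare the shape of the precursors, with the mature sequences in capitals.
Mir144 hairpin: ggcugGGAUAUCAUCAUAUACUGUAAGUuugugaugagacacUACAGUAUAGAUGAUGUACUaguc
Mir451a hairpin: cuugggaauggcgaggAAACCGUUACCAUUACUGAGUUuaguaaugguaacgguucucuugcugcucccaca
Mir451b hairpin: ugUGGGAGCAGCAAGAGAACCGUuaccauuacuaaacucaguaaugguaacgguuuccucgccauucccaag
Mir144 has a mature sequence on each arm of its 66-base hairpin. Mir451a has 1, whose 3′ end reaches into the loop, and the arm that follows pairs with most of it. The counts are per gene, so the arms of Mir144 were not separated.

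The mature sequences show which targets each microRNA can recognise, since pairing starts at the seed, bases 2 to 8, given here in capitals.
mmu-miR-144-5p: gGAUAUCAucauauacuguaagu
mmu-miR-144-3p: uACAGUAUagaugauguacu
mmu-miR-451a: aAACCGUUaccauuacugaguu
mmu-miR-451b: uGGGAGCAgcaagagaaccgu
None of these 4 seeds was shared with another mature sequence among the 1738 entries of the RefSeq table. Over bases 2 to 7 alone, miR-144-3p matched 1 other entry, mmu-miR-101a-3p, while the other three matched none. Neighbours in the genome, Mir144 and Mir451a thus carry different seeds.

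Mir486 was the most abundant of the 3 genes, followed by Mir451a and Mir144. A read of small RNA spans a whole mature microRNA, so CPM values were compared between genes without division by length, and differences in how well each sequence enters a library were not corrected. Mir486 had 4155 counts in replicate 1 and 3158 in replicate 2, which is 992 and 1097 CPM, a mean of 1045 ± 74.3 CPM (SD, n = 2). It stood at rank 61 and rank 58 of the 2202 genes.

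Mir451a had 2155 counts in replicate 1 and 484 in replicate 2. Its level was 515 CPM (exact Clopper-Pearson 95% interval 493 to 537) and 168 CPM (154 to 184), a mean of 341 ± 245 CPM (SD, n = 2). Its rank was 78 in replicate 1 and 110 in replicate 2. Mir451a was thus lower in replicate 2 than in replicate 1.

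Mir144 had 1004 counts in replicate 1 and 178 in replicate 2. Its level was 240 CPM (interval 225 to 255) and 61.9 CPM (53.1 to 71.6), a mean of 151 ± 126 CPM (SD, n = 2), at rank 99 and rank 155. The order of the 3 genes was the same in both libraries. Between libraries, however, Mir144 in replicate 1 exceeded Mir451a in replicate 2, so the levels of these neighbours overlapped, while both Mir486 values lay above all values of the other two. Intervals allow for counting error of reads alone. The reads carry no molecular identifiers and can be copies of 1 molecule, so the intervals may be too narrow for counts of molecules. In whole tissue, fewer red cells and less of a microRNA per cell cannot be told apart.

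**Figure D1:**
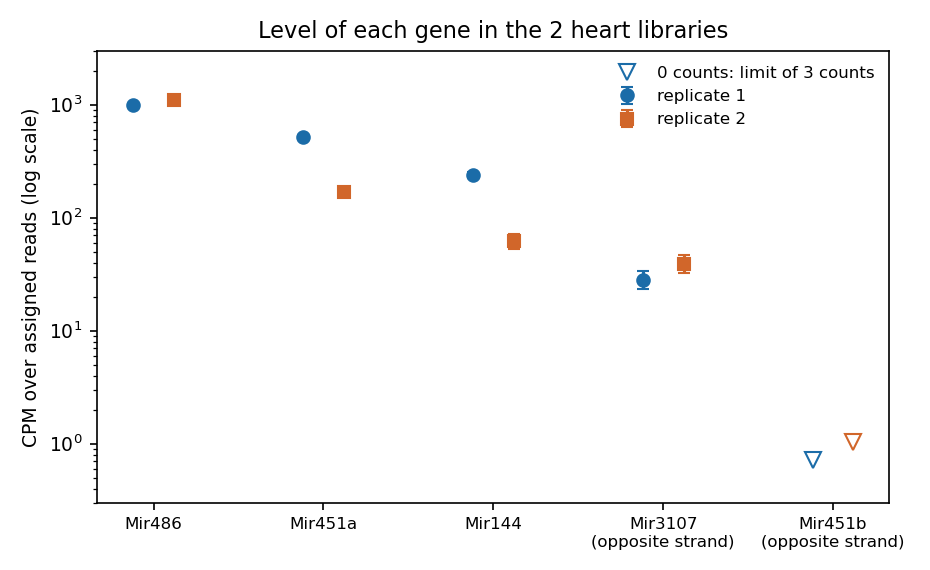
Level of Mir486, Mir451a, Mir144 and the 2 genes on the opposite strand of Mir486 and Mir451a, in CPM on a log axis, as 1 point for each library with exact 95% counting intervals, often smaller than the point. Open triangles mark genes at 0 counts, drawn at a fixed limit of 3 counts, 0.717 and 1.04 CPM. Mir486 sits at 992 and 1097 CPM, whereas Mir451a and Mir144 are lower in replicate 2 than in replicate 1.

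Together the 3 genes held 0.175% of the assigned reads in replicate 1 and 0.133% in replicate 2. Mir486 supplied 56.8% of their reads in replicate 1 and 82.7% in replicate 2. The summed level of the chromosome 11 cluster was 755 CPM in replicate 1 and 230 CPM in replicate 2.

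No reads were counted on the opposite strand of Mir144 or Mir451a, whereas some were at Mir486. All 1004 and 178 reads at Mir144, and all 2155 and 484 at Mir451a, lay on the strand of the gene. Mir451b had 0 counts in both libraries. Its exact 95% interval (Clopper-Pearson) reached up to 0.881 CPM in replicate 1 and 1.28 CPM in replicate 2. At the Mir486 locus the share covers only reads that were counted for a strand. Of these, 97.2% lay on the Mir486 strand in replicate 1 (exact Clopper-Pearson 95% interval 96.7 to 97.7). In replicate 2 it was 96.5% (95.9 to 97.1). The remaining 118 and 113 reads were counted for Mir3107, an opposite-strand microRNA gene of 90 bases that lies wholly inside Mir486 and that RefSeq also lists as mir-486b. Across genes that overlap no other microRNA gene, 0.00444% of reads in replicate 1 and 0.00312% in replicate 2 lay on the opposite strand.

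**Figure D2:**
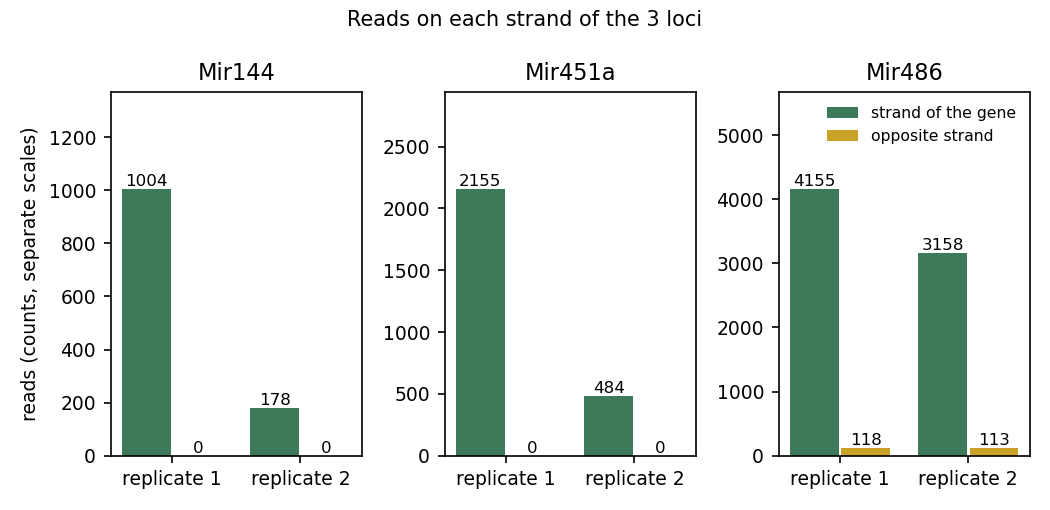
Reads on each gene's own strand (green) and on the opposite strand (yellow) at the Mir144, Mir451a and Mir486 loci in each library, in counts on a separate linear axis for each gene. Only Mir486 has opposite-strand reads, 118 in replicate 1 and 113 in replicate 2.

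The strands of the Mir486 locus resemble each other more than those of the cluster genes. A run of 22 bases of the Mir486 precursor occurred also on its own opposite strand, against 16 bases for Mir451a, 9 for Mir144 and a median of 7 over all 2202 precursors. A run of at least 22 was found in 68 precursors (3.09%), and one of at least 16 in 120 (5.45%). The full mature sequence of miR-451a, at 22 bases, did not occur on the opposite strand of its locus. A read that falls within the shared run of Mir486 cannot be placed on a strand by its sequence. Reads that fitted several places were assigned to no gene and made up 42.4% and 43.2% of all reads in the respective libraries. How many of them came from Mir486 was not measured, so its level and its strand share cover only reads that could be placed. With other precursors, the longest run was 13 bases for Mir144, 11 for Mir451a and 13 for Mir486, and no other locus among the microRNA genes held a whole mature sequence of Mir144 or Mir451a.

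Both cluster genes were lower in replicate 2, and Mir486 was slightly higher. Ratios are of replicate 2 over replicate 1 after TMM scaling, which sets the libraries level over most genes. Mir144, at 240 and 61.9 CPM, was lower in replicate 2 (log2 ratio -1.88, exact 95% interval -2.12 to -1.65, adjusted p = 1.26e-74). Mir451a, at 515 and 168 CPM, was also lower (log2 ratio -1.54, interval -1.69 to -1.40, adjusted p = 5.73e-121). These ratios correspond to 3.69-fold and 2.91-fold lower levels after scaling. Mir486, at 992 and 1097 CPM, was higher (log2 ratio 0.22, interval 0.15 to 0.28, adjusted p = 6.26e-10), a 1.16-fold difference. Its opposite-strand partner Mir3107, at 28.2 and 39.3 CPM, was higher too (log2 ratio 0.55, interval 0.17 to 0.93, adjusted p = 0.00804).

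The p-values are two-sided, from the exact binomial test, and were adjusted by the Benjamini-Hochberg method over the 309 genes left after low counts were removed. They compare these 2 libraries beyond counting error and not conditions. Such differences were common: 63.4% of the tested genes passed, 28.2% as lower and 35.3% as higher in replicate 2, so passing the test sets none of the 3 genes apart. In size, the differences of the cluster genes were among the larger ones. Among the 309 tested genes, 14 were at least as far from no change as Mir144 and 27 as Mir451a, counting each gene itself, whereas 230 were at least as far as Mir486. The median tested gene differed 1.43-fold. The spread between the libraries beyond counting error, as edgeR's common biological coefficient of variation, was 0.414.

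**Figure D3:**
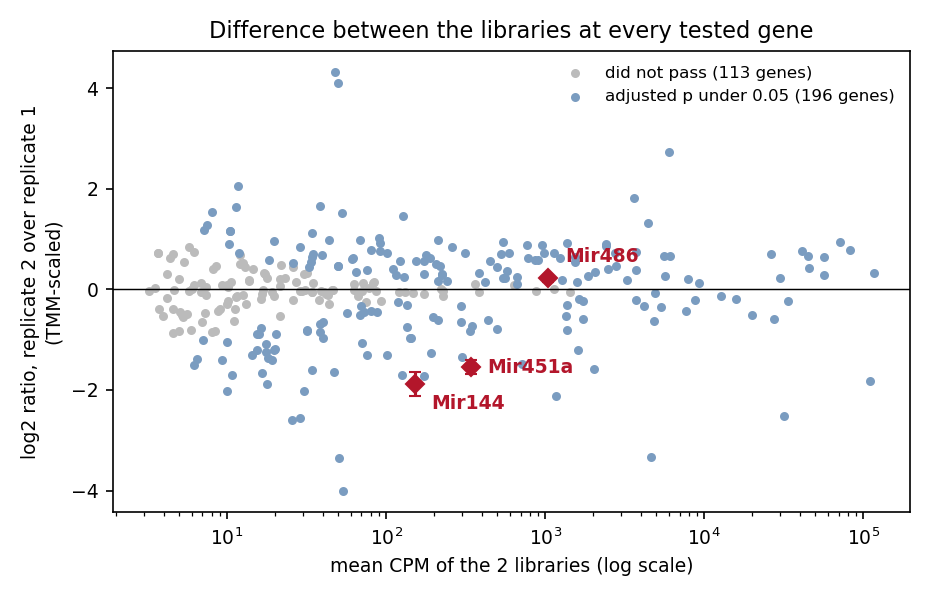
Log2 ratio of replicate 2 over replicate 1 against mean CPM (log axis) for the 309 tested genes, with genes past an adjusted p of 0.05 in blue and the rest in grey. Red diamonds with exact 95% intervals mark Mir144 at -1.88, Mir451a at -1.54 and Mir486 at 0.22.

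Within the cluster, the balance of the neighbours differed less than their levels did. Replicate 1 held 2.15 counts of Mir451a for each count of Mir144 (exact 95% interval 1.99 to 2.32), and replicate 2 held 2.72 (2.29 to 3.25), a mean of 2.43 ± 0.405 (SD, n = 2). The ratio was 1.27-fold higher in replicate 2 (Fisher's exact test, two-sided, p = 0.0142, also after adjustment over the 3 pairs of genes). This ratio needs no scaling between libraries. Against Mir486 the balance differed more. Counts of Mir486 per count of Mir451a were 1.93 in replicate 1 and 6.52 in replicate 2, and per count of Mir144 4.14 and 17.7 (Fisher's exact tests, two-sided, adjusted p = 4.08e-122 and 6.54e-84).

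Other microRNAs known from red cells did not share a direction. Of a list of 17 such genes besides these 3, 16 were tested. Of these, 8 were lower in replicate 2, 5 were higher and 3 did not pass, beside 28.2% lower and 35.3% higher over all tested genes. The list's median log2 ratio was -0.19, against 0.01 over all tested genes. By falling level, the lower genes were Mir22 (log2 ratio -2.51), which is also a heart muscle microRNA, Mir185 (-0.31), Mir15b (-0.80), Mir15a (-2.11), Mir16-1 (-1.49), Mir106b (-0.82), Mir25 (-1.35) and Mir16-2 (-0.61). Mir15a and Mir16-1 share a cluster and restrain the cell cycle. The higher genes were Mir191 (log2 ratio 0.20), whose decline is needed for red cells to shed the nucleus, Mir93 (0.47), which lies in a cluster with Mir106b and Mir25, Mir484 (0.10), Mir425 (0.23) and Mir20b (1.17). Mir92-1, listed as mir-92a-1 in RefSeq, stood at 1507 and 1377 CPM and did not pass. The Mir16 and Mir92a genes each have a second copy, so their counts cover only reads unique to 1 locus. Mir363 stayed under the filter. Mean levels on the list ranged from 31817 CPM for Mir22 to 2.95 CPM for Mir363, beside 341 CPM for Mir451a. How many of these reads came from red cells was not measured.

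MicroRNAs that are known to decline as red cells mature were mostly higher in replicate 2. A list of 7 such genes was used, which did not hold Mir191 and was chosen with earlier results of these data known. Of the 7, 6 were higher in replicate 2 and Mir24-2 was lower (log2 ratio -1.26), with a list median of 0.68. Over all tested genes, 35.3% were higher and 28.2% lower, with a median of 0.01. Mir221 (log2 ratio 0.89) and Mir222 (0.73) lower the receptor Kit of early red cell precursors and are also made by endothelium. The Mir24 genes, of which Mir24-1 was higher (0.55), share a mature sequence, so their counts cover only reads unique to 1 locus. Mir150 (0.86), Mir223 (0.68) and Mir155 (0.38) are also microRNAs of white blood cells. Mir150, Mir223 and Mir155 are among the 5 leukocyte genes, so the lists overlap. The summed level of the 5 was 5998 CPM in replicate 1 and 8349 CPM in replicate 2, and all 5 were higher there. The leukocyte genes and the Mir144/451a cluster thus differed in opposite directions between the libraries.

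MicroRNAs of other cell types of heart tissue also differed between the libraries. The 7 cardiomyocyte genes summed to 6544 CPM in replicate 1 and 4789 CPM in replicate 2. Of the 4 tested, 3 were lower, beside 28.2% lower and 35.3% higher over all tested genes. Most of the sum came from Mir499 (4787 and 3618 CPM) and Mir208a (1638 and 1074 CPM). The Mir1a and Mir133a genes each have a second copy, so their counts cover only reads unique to 1 locus. The 3 endothelial genes summed to 176135 and 49984 CPM, of which Mir126a was lower (log2 ratio -1.83) and the other 2 higher, so that the list's median log2 ratio of 0.73 and its sum differ in sign. The skeletal muscle genes Mir206 and Mir133b summed to 23.6 and 11.1 CPM, with Mir206 lower and Mir133b not past the test. None of the listed leukocyte, cardiomyocyte, endothelial or skeletal muscle genes was at 0 in both libraries. The part of these cell types, and of the difference in depth, in the values of Mir144, Mir451a and Mir486 was not tested.

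**Figure D4:**
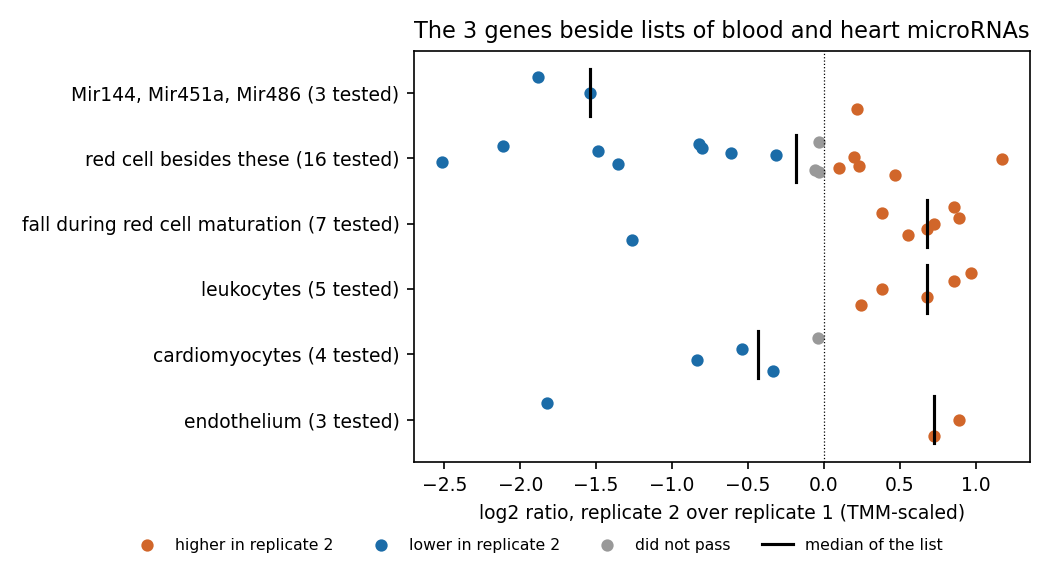
Log2 ratio of replicate 2 over replicate 1 for each tested gene of 6 lists, as points coloured by the call, with a black line at each list's median. The cluster genes lie at -1.88 and -1.54 and Mir486 at 0.22, while the other red cell genes spread on both sides of 0 and all 5 leukocyte genes lie above 0.

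Ranked by likeness of the log2 ratio over these 2 libraries, the genes nearest to Mir144 were Mir219a-2 (log2 ratio -1.88), Mir126a (-1.83) and Mir206 (-2.02), out of those with a mean of 10 CPM or more. Nearest to Mir451a were Mir214 (-1.59), Mir16-1 (-1.49) and mmu-mir-3535 (-1.61). For Mir486 they were Mir375, Mir450b and Mir467d, each with a log2 ratio of 0.22. The first 6 of these 9 genes passed the test as lower in replicate 2, and of the last 3 only Mir467d passed. Because the genes were chosen by their log2 ratio, these calls follow largely from the choice. Over all tested genes, 28.2% were lower and 35.3% higher. Likeness over 2 libraries rests on a single ratio for each gene.

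By mean level, Mir144 at rank 116 stood between Mir350 (155 ± 36.7 CPM) and Mir1843a (147 ± 10.7 CPM; SD, n = 2). Mir451a at rank 89 stood between Mir125b-1 (346 ± 131 CPM) and Mir106b (334 ± 142 CPM; SD, n = 2). Mir486 at rank 62 stood between Mir676 (1129 ± 351 CPM) and Mir17 (983 ± 310 CPM; SD, n = 2). Each of these differences in level was smaller than the larger SD of the pair, although Mir676 exceeded Mir486 by more than the SD of Mir486 itself. The next genes outward were Mirlet7f-1, Mir187, Mir339 and Mir101b around Mir144, Mir872, Mir351, Mirlet7a-2 and Mir25 around Mir451a, and Mir146, Mir15a, Mir10b and Mir181b-2 around Mir486. Of the 18 neighbours in level, replicate 2 had higher levels of 9 and lower levels of 6, and 3 did not pass, beside 35.3% higher and 28.2% lower over all tested genes.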

How the data were processed

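Small RNA of 2 heart libraries was measured as raw read counts per microRNA gene, as deposited by the authors in 1 table for each library. The tables count reads without regard to strand, on the strand of the gene and on the opposite strand. The deposited readme gives build mm10 and annotation M21. Which aligner and counter made the tables is not given in the sources used here. Values were read from the strand-of-gene column. The 4 leading rows of unmapped, multi-locus, unannotated and ambiguous reads were left out of totals and came to 19.0%, 42.4%, 6.94% and 0% of 13233055 reads in replicate 1, and 17.5%, 43.2%, 7.11% and 0% of 8930289 in replicate 2. Genes at 0 were drawn at a fixed limit of 3 counts, or 0.717 and 1.04 CPM, which is not a confidence limit.

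CPM used assigned reads. Ratios used TMM totals from edgeR 4.0.16 in R 4.3.3, after filterByExpr with a minimum count of 10. Differences were tested in Python 3.11.15 with scipy 1.17.1, by the exact binomial test with Benjamini-Hochberg adjustment at 0.05, since 1 group of 2 leaves no residual degrees of freedom between its libraries. Of these steps, only the binomial test with its adjustment was tried on simulated counts, which held no spread between libraries beyond counting error. DESeq2 1.42.0 gave alternative size factors. Other alternatives were plain totals, all reads, no filter, the other strand columns and leaving out each library. All 2202 identifiers matched M21. Symbols absent there were matched through RefSeq synonyms. Shared runs were searched in the M21 precursors on both strands.

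The genes and lists were chosen with earlier results of these data known. Named genes are the 3 genes, microRNA genes within 10 kb of them, 3 neighbours in level on each side, the 3 nearest log2 ratios among genes at 10 CPM or more, and list members by level. Of a list of cluster and processing partners (Mir451b, Mir144, Mir4732), Mir4732 matched no gene and is not analysed here, Mir451b had 0 counts and Mir144 was lower in replicate 2.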

Additional observations from a re-analysis of the deposited data

How the results depend on the processing

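Mir144 and Mir451a remained lower and Mir486 higher in replicate 2, each past the threshold, under every alternative that gave a value, 16 in all. Without the filter no log2 ratio could change, since only the adjustment of p-values did. For Mir144 and Mir451a, which had no opposite-strand reads, every alternative changed only the scaling or this adjustment. The log2 ratio ranged from -1.95 to -1.86 for Mir144, from -1.61 to -1.52 for Mir451a and from 0.15 to 0.25 for Mir486. Genes past the test over the whole table numbered between 174, without regard to strand, and 215, with both strands summed, against 196. Without a filter 214 of 709 genes passed (30.2%, against 63.4% with it). Per 1000000 of all reads, the mean level was 47.9 for Mir144, 109 for Mir451a and 334 for Mir486, against 151, 341 and 1045 CPM. With both strands summed it was 118, 267 and 865 CPM. That sum counts a read at overlapping opposite-strand genes for both genes. Its total in replicate 1 was thus 5466780, against 4186560 assigned reads, and the 215 genes rest on the same sum. Counts without regard to strand gave no value for Mir451a or Mir486, since each overlaps an opposite-strand gene and its reads were ambiguous there. Leaving out a library left no ratio between libraries. The single-library mean ranged from 61.9 to 240 CPM for Mir144, from 168 to 515 CPM for Mir451a and from 992 to 1097 CPM for Mir486, and Mir451a per Mir144 from 2.15 to 2.72. No paired analysis was possible because the design holds 1 group. Of the 3 genes, Mir144 had the fewest counts, 178 in replicate 2.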
